A study of Mus musculus with 10 samples.

Results

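The subunits of the respiratory chain and of ATP synthase were examined in RNA from mouse distal colon crypts. Members were the genes whose symbol marks them as a subunit: Nduf followed by a, b, c, s or v and a digit for complex I, Sdha to Sdhd for complex II, Uqcr for complex III, Cox4 to Cox8 for complex IV and Atp5 for ATP synthase. This rule found 84 of 23364 genes, of which 37 belong to complex I by symbol, 4 to complex II, 8 to complex III, 18 to complex IV and 17 to ATP synthase. The rule used symbols only and no measured value. Ndufs5, Cox7b2 and Cox8c were listed at 0 in every library, so 81 members had values. Many of these genes have processed pseudogenes or near-identical copies, and how reads that fit several places were counted is not stated. All members are nuclear genes, and no mitochondrially encoded subunit was analysed here.

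Crypts had been shaken off the distal colon in EDTA, and poly(A) RNA was sequenced from 10 libraries. Untreated mice gave the 3 control libraries. The 4 DSS libraries came from mice treated with dextran sulfate sodium, which injures the colon lining and inflames it, and the 3 AOM+DSS libraries from mice treated with the carcinogen azoxymethane and then with DSS. The series describes these as a control, an inflammation and a cancer arising from inflammation. The labels leave out strain, sex, age, doses and times, and nothing says whether a library came from 1 mouse or whether AOM+DSS crypts were taken from tumours, so the p-values speak of the spread among these libraries, which may be technical. The crypt label fits the keratins that mark simple epithelium. Krt8, at a mean of 69346 normalized reads in control, and Krt19 were the highest of 10 epithelial markers. None of the 10 passed the authors' test in either comparison, with a median log2 fold change of 0.15 in DSS and 0.07 in AOM+DSS. In AOM+DSS 7 of the 10 were above 0 and 3 below, Krt8 and Krt19 among the latter at log2 -0.27 each. None of the 10 was recovered in every library, so their spread among libraries is not known.

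The respiratory chain is a set of protein complexes in the inner mitochondrial membrane. Complex I takes electrons from NADH and complex II from succinate, both hand them to ubiquinone, complex III passes them to cytochrome c, and complex IV to oxygen. Complexes I, III and IV pump protons, and ATP synthase uses their return to make ATP. Colon epithelial cells are known for burning butyrate from gut bacteria by this route, and inflammation and tumours of the colon are often studied for a shift towards glycolysis.

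The deposited tables give group means of normalized reads (reads divided by a size factor for each library), the fold changes and the authors' DESeq tests. Whole reads of single libraries were recovered from the printed digits of these means, for all 84 members in control and AOM+DSS and for 69 in DSS. Libraries carry a letter within their group, a being the deepest, which cannot be tied to replicate numbers. Recovered depth was 16844345 to 18583125 reads in control and 16369977 to 23851238 in AOM+DSS. In DSS, 60.6% of the mean total was recovered, and the size factors (1.27 in library a, 1.21 in b, 0.706 in c and 0.645 in d) give the relative depth. Some libraries stood apart. In AOM+DSS library c, 10 smooth muscle markers summed to 14917 normalized reads, against 1849 and 1634 in libraries a and b and 1390 to 3053 in control. In DSS library a, 7 B and plasma cell markers summed to 12478, against 2211 to 6149 in the other DSS libraries. Control library b held 3058 normalized reads of these, against 231 and 136 in control libraries a and c. For the smooth muscle markers it held 3053, against 1432 and 1390.

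Promoter sequences are shown for the members on which the comparisons below turn and for examples of a motif more common among members than among all promoters. They are the 250 bases before the RefSeq transcription start (GRCm38.p6), 5′ to 3′ on the gene's strand, and 69 of the 84 members had an entry. Cox7a1 and Atp5sl were the members that passed the authors' test, Ndufa4 was the one member with every AOM+DSS library above every control library, and Atp5h and Ndufa11 are examples with a motif of NRF1, a transcription factor known to drive many respiratory genes. Capitals mark matches to the motifs of NRF1 (GCGC, any 2 bases, GCGC), YY1 (AAGATGGC), GABP (CCGGAAGT), ERR (AAGGTCA) and CRE (TGACGTCA) on either strand.
Cox7a1 (chr7:30183921-30184170, plus strand): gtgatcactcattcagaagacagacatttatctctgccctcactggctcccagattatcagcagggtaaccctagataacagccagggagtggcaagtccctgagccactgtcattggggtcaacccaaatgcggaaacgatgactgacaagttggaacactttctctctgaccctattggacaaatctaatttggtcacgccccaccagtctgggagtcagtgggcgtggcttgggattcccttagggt
Atp5sl (RefSeq symbol Dmac2, chr7:25619164-25619413, plus strand): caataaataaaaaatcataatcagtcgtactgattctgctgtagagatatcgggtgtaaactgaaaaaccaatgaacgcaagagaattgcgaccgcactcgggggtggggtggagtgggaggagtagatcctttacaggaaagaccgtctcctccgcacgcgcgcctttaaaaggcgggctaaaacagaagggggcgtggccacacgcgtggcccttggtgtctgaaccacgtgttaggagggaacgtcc
Ndufa4 (chr6:11907451-11907700, minus strand): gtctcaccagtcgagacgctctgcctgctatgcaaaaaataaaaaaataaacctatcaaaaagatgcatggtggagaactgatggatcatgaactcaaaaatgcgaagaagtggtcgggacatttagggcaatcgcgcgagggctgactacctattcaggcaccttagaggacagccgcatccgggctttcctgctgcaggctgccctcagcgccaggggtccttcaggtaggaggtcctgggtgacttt
Atp5h (chr11:115419920-115420169, minus strand): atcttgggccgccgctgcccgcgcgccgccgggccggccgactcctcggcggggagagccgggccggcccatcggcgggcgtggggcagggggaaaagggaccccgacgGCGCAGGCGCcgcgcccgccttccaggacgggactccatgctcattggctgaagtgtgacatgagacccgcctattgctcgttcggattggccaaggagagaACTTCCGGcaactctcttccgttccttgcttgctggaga
Ndufa11 (chr17:56717512-56717761, plus strand): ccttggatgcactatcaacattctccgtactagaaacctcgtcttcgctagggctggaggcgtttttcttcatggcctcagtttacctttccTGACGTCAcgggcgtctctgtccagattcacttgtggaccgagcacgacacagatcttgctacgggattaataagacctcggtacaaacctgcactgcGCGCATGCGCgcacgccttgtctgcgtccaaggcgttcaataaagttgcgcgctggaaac

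In Atp5h the NRF1 match began 141 bases before the start and a GABP match 39 bases before it. In Ndufa11 the NRF1 match began 60 bases before the start and a CRE match 158 bases before it. These letters do not occur in the windows of Cox7a1, Atp5sl and Ndufa4. The NRF1 letters were in 13 of the 69 member promoters (18.8%), against 5.09% of 27025 RefSeq promoters of the same length. The shares were 5.80% and 1.62% for CRE, 7.25% and 4.05% for ERR, and 4.35% and 2.93% for GABP. YY1 letters were in none of the 69 and in 1.59% of all. Bases after the start were not searched. GGGCGG, the core of an Sp1 site, was in 36.2% of member promoters and in 32.9% of all, and CCAAT in 44.9% and 34.5%. Members with and without the NRF1 letters had similar fold changes in AOM+DSS, with a median log2 of -0.46 over 12 and -0.44 over 55 members.

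In DSS crypts, no member passed the authors' test (an adjusted p under 0.05), against 4.39% of 18099 genes tested, 2.61% higher and 1.78% lower. Most members lay slightly below control: 71 of 81 had a log2 fold change below 0 (87.7%, against 47.8% of all genes tested), with a median of -0.11 against 0.02 for all genes. At an unadjusted p under 0.05 the authors' table held 4 of 81 members, all lower (Cox8b, Cox7a2l, Atp5sl and Atp5s), a share near the background of 5.46% of all genes. Limma on the recovered reads, with Benjamini-Hochberg adjustment over 17354 genes with reads recovered in both groups, called 1 of the 66 members among them. This was Cox8b, which was lower (background 2.59% lower). The 4 DSS libraries lay below all 3 controls in 5 of 66 members, against 10.4% of these 17354 genes.

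In AOM+DSS crypts, 2 of 81 members fell and none rose in the authors' deposited table, where 8.89% of 18334 genes passed, 3.35% lower and 5.54% higher. The direction was shared widely: 78 of 81 members had a log2 fold change below 0 (96.3%), against 47.0% of all genes tested and 55.4% of genes with a control mean of at least 1000 normalized reads. The median was -0.42, a level of 0.747 times control, against 0.02 for all genes and -0.05 for genes with a control mean of at least 1000. All 3 AOM+DSS libraries lay below all 3 controls in 49 of 81 members (background 17.9% of all genes and 26.5% of genes with a control mean of at least 1000) and above them in 1, Ndufa4 (background 20.7%). At an unadjusted p under 0.05 the authors' table held 23 of 81 members, all lower (background 7.75%). Limma called 24 members, all lower (background 6.5%). That count was 57 without AOM+DSS library c (background 8.62%), 12 without control library b (background 6.38%) and 0 without control library a or c or AOM+DSS library a or b. For the fits with 0 the share of all genes called was not computed. Whether that loss of calls is particular to the members is therefore not known. Members are not replicates of the condition, since all were read from the same 6 libraries.

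**Figure D1:**
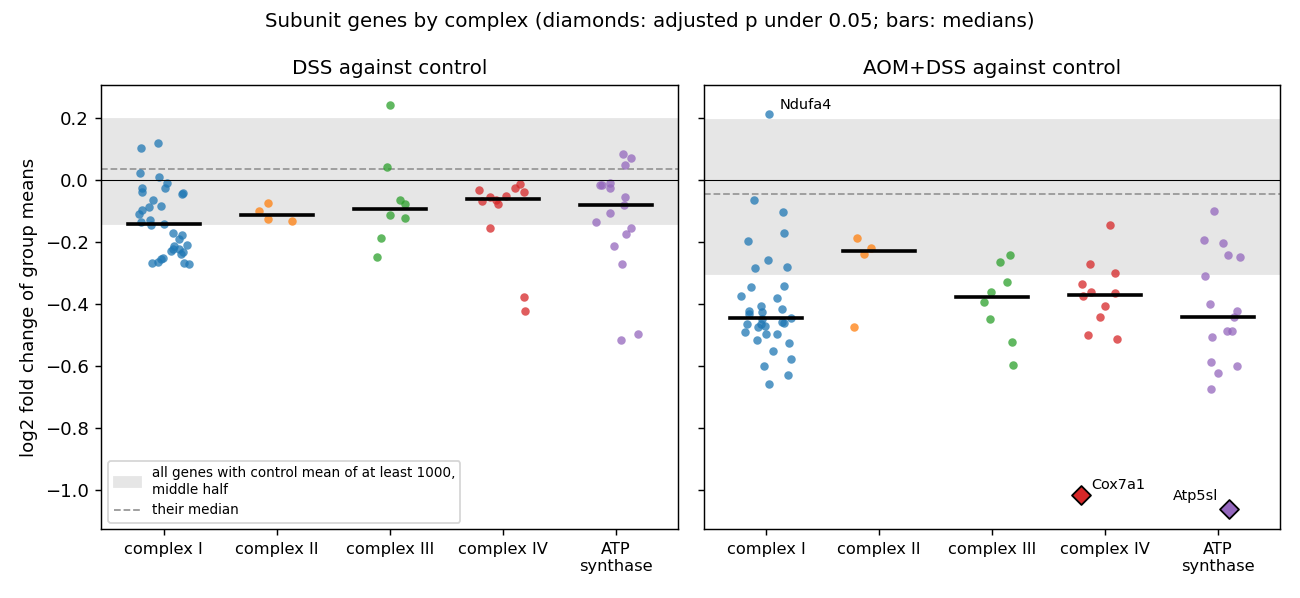
Log2 fold change of the group means of each subunit gene with a control mean of at least 50 normalized reads, by complex, for DSS (left) and AOM+DSS (right) against control; each point is a gene, black bars are medians, diamonds passed the authors' test, and the grey band spans the middle of all genes with a control mean of at least 1000, with their median dashed. In AOM+DSS the medians of the 5 complexes lie between -0.44 and -0.23, and Ndufa4 is the point above 0.

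Complex by complex, the median log2 fold change in AOM+DSS was -0.44 for complex I, -0.23 for complex II, -0.38 for complex III, -0.37 for complex IV and -0.44 for ATP synthase. In DSS the medians were -0.14, -0.11, -0.10, -0.07 and -0.08 in the same order. Both comparisons share the control libraries, so these columns are not independent of each other. Together the members held 2.04% of all normalized reads in control, 1.84% in DSS and 1.62% in AOM+DSS, from the deposited group means. In bulk RNA, fewer cells of a type and less RNA per cell cannot be told apart.

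Complex I was represented by 36 members with values. Its 7 nuclear core subunits, which carry the flavin and the iron-sulfur clusters, had a median log2 of -0.28 in AOM+DSS, and the 27 other subunits, apart from Ndufa4 and its paralog, had -0.45. The grouping by role was made with the values known and was not tested. Ndufs7, the core subunit with the last iron-sulfur cluster, had the lowest fold change of the complex at log2 -0.66. It stood at 3291, 2529 and 3545 normalized reads in control libraries a to c and at 1884, 1561 and 2490 in AOM+DSS. The groups do not overlap, but AOM+DSS library c came close to control library b, and the authors' adjusted p was 0.206.

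Ndufs1, the largest core subunit, was nearest to control among the core subunits, at log2 -0.10. Its levels were 3244, 3175 and 2573 normalized reads in control, 2708, 2848, 2512 and 2536 in DSS libraries a to d, and 2910, 2649 and 2806 in AOM+DSS. All 3 AOM+DSS values lay within the control range. The accessory subunit Ndufs4 also had overlapping groups and a log2 of -0.06. Ndufb9, an accessory subunit of the membrane arm, had 5188 ± 389 normalized reads in control and 3866 ± 832 in AOM+DSS (SD, n = 3 each). In DSS, complex I ranged among its well measured members from -0.27 for the accessory subunit Ndufa6 to 0.12 for Ndufa2, and neither passed.

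Ndufa4 carries a complex I name but is now known as a subunit of complex IV. It stood at 2028, 1841 and 2040 normalized reads in control, at 1955, 2102, 2126 and 2272 in DSS, and at 2214, 2295 and 2337 in AOM+DSS. Every AOM+DSS library lay above every control library, the reverse of the members around it, while the DSS libraries overlapped with control. The difference was small, with log2 0.21, and the authors' deposited table gave it an adjusted p of 0.768, so it did not pass. Its paralog Ndufa4l2, known as a target of hypoxia signalling, was barely detected: 17.4, 10.9 and 16.9 normalized reads in control, 3.30 to 7.76 in DSS, and 40.9, 7.44 and 24.3 in AOM+DSS. The DSS libraries all lay below control, and AOM+DSS library b lay below control while libraries a and c lay above.

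Complex II, succinate dehydrogenase, is also an enzyme of the citric acid cycle. All 4 subunits were below control in both comparisons and none passed. Sdhb, the iron-sulfur subunit, stood at 5591, 4842 and 5476 normalized reads in control and at 3725, 3290 and 4447 in AOM+DSS. Its groups do not overlap, with log2 -0.47 and an authors' adjusted p of 0.173. Limma's adjusted p was 0.0433, with a range of 0.0260 to 0.188 over its alternatives. The flavin subunit Sdha had 9144 ± 660 normalized reads in control and 8039 ± 743 in AOM+DSS (log2 -0.19), and its groups overlap. For the membrane anchors, Sdhc had 4538 ± 74.7 and 3843 ± 419 (log2 -0.24) and Sdhd had 6847 ± 255 and 5886 ± 699 (log2 -0.22), as mean and SD with n = 3. Sdhb thus lay further below control than the other subunits of its complex, a difference that was not tested.

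In complex III the core proteins Uqcrc1 and Uqcrc2 had the highest levels. Uqcrc1 stood at 9705, 7991 and 9001 normalized reads in control and at 6542, 5737 and 7265 in AOM+DSS, with no overlap, log2 -0.45 and an authors' adjusted p of 0.172, while limma's was 0.0477 (range 0.0332 to 0.198). Uqcrc2 had a log2 of -0.27, and the Rieske iron-sulfur protein Uqcrfs1, at log2 -0.24, was the member of the complex closest to control. The 5 small subunits had a median of -0.39, and Uqcr10 was the lowest of the complex at -0.60. In DSS the small subunit Uqcrq had the highest log2 of complex III (0.24), a mean that hides a wide split. Its DSS libraries a to d stood at 1964, 2388, 4962 and 5700 normalized reads, against 3060, 2809 and 3656 in control. Libraries a and b were below every control and c and d above every control, so the group mean describes none of them.

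Complex IV held the second member that passed. Cox7a1, the form of subunit VIIa known from heart and skeletal muscle, stood at 1114, 862 and 1110 normalized reads in control, at 507, 554, 935 and 1075 in DSS libraries a to d, and at 465, 296 and 766 in AOM+DSS. All AOM+DSS libraries lay below all controls, with library c nearest. The fall was 1.02 on the log2 scale, to 0.495 times control, and the authors' deposited table gave it an adjusted p of 0.0435. Limma gave an adjusted p of 0.0464, with a range of 0.0240 to 0.215 over 11 alternatives, of which 5 passed. In DSS, libraries a and b lay below every control and c and d within the control range, and Cox7a1 did not pass (log2 -0.42, for which the authors' deposited table has adjusted p = 0.539). Per kilobase of transcript, Cox7a1 made up 27.4% of the sum of Cox7a1 and its common paralog Cox7a2 in control, 22.8% in DSS and 19.0% in AOM+DSS, from the group means. The 10 striated muscle markers summed to 162 to 350 normalized reads in control, 224 to 562 in DSS and 239 to 296 in AOM+DSS, with Myh2 at 0 in every library, and their part in the level of Cox7a1 was not tested.

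The common subunits of complex IV were below control together. Their 10 genes had log2 fold changes of -0.51 for Cox5b to -0.15 for Cox5a in AOM+DSS (median -0.36) and of -0.15 to -0.01 in DSS, and none passed. Cox4i1, with the highest level, had 12978 ± 1344 normalized reads in control and 9550 ± 2081 in AOM+DSS, and Cox6a1 had 10505 ± 924 and 7925 ± 1579 (SD, n = 3 each). Cox6b1, Cox6c, Cox7a2, Cox7b, Cox7c and Cox8a lay between -0.37 and -0.27 in AOM+DSS. Cox7a2l, which is known to join complexes III and IV into supercomplexes, was the member of complex IV with a high level and the same order in both treatments. It stood at 6046, 5387 and 6323 normalized reads in control, at 4340, 4158, 4789 and 4920 in DSS, and at 3682, 3764 and 5113 in AOM+DSS. Both treated groups lay below every control, at log2 -0.38 in DSS and -0.50 in AOM+DSS, with authors' adjusted p of 0.332 and 0.0988. Limma's adjusted p for AOM+DSS was 0.0492, with a range of 0.0209 to 0.204 over its alternatives.

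The tissue-restricted forms of complex IV were near the floor. Cox8b, a muscle and brown fat form, stood at 24.1, 7.90 and 25.4 normalized reads in control, at 0.790, 1.65, 0 and 0 in DSS and at 0, 0.827 and 3.31 in AOM+DSS. Both treated groups lay below every control. The authors' adjusted p was 0.0828 for DSS and 0.138 for AOM+DSS, and limma's was 0.0104 (range 0.00840 to 0.104) and 0.0228 (range 0.0177 to 0.139). Cox6b2, known from testis, stood at 34.8, 42.5 and 51.9 normalized reads in control, 6.59 to 34.0 in DSS and 14.9 to 22.1 in AOM+DSS, and did not pass in either comparison. Cox4i2 reached at most 6.63 and Cox6a2 at most 5.52 normalized reads in any library. The 7 adipocyte markers summed to 9.53 to 151 normalized reads in control, 105 to 357 in DSS and 153 to 271 in AOM+DSS, with Plin1 and Lep at 0 in every library, and their part in the level of Cox8b was not tested.

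ATP synthase had the other member that passed. Atp5sl, named for its likeness to an ATP synthase factor and now called Dmac2 for a role in building the membrane arm of complex I, stood at 1757, 1337 and 2041 normalized reads in control. It stood at 996, 907, 1606 and 1348 in DSS libraries a to d and at 821, 716 and 921 in AOM+DSS. Every AOM+DSS library lay below every control, and DSS libraries a and b did as well. The fall in AOM+DSS was 1.06 on the log2 scale, to 0.479 times control, and the authors' deposited table gave it an adjusted p of 0.00327. Limma gave an adjusted p of 0.00960, with a range of 0.00808 to 0.102 over 11 alternatives, of which 7 passed. In DSS Atp5sl did not pass (log2 -0.50, for which the authors' deposited table has adjusted p = 0.264). Atp5s, the related factor, stood at 322, 260 and 364 normalized reads in control and at 223, 180 and 211 in AOM+DSS, with no overlap, log2 -0.62 and an authors' adjusted p of 0.234. Cox7a1 and Atp5sl, the members that passed, are a tissue form and an assembly factor by what is known of them, and no common structural subunit passed in the authors' deposited table.

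**Figure D2:**
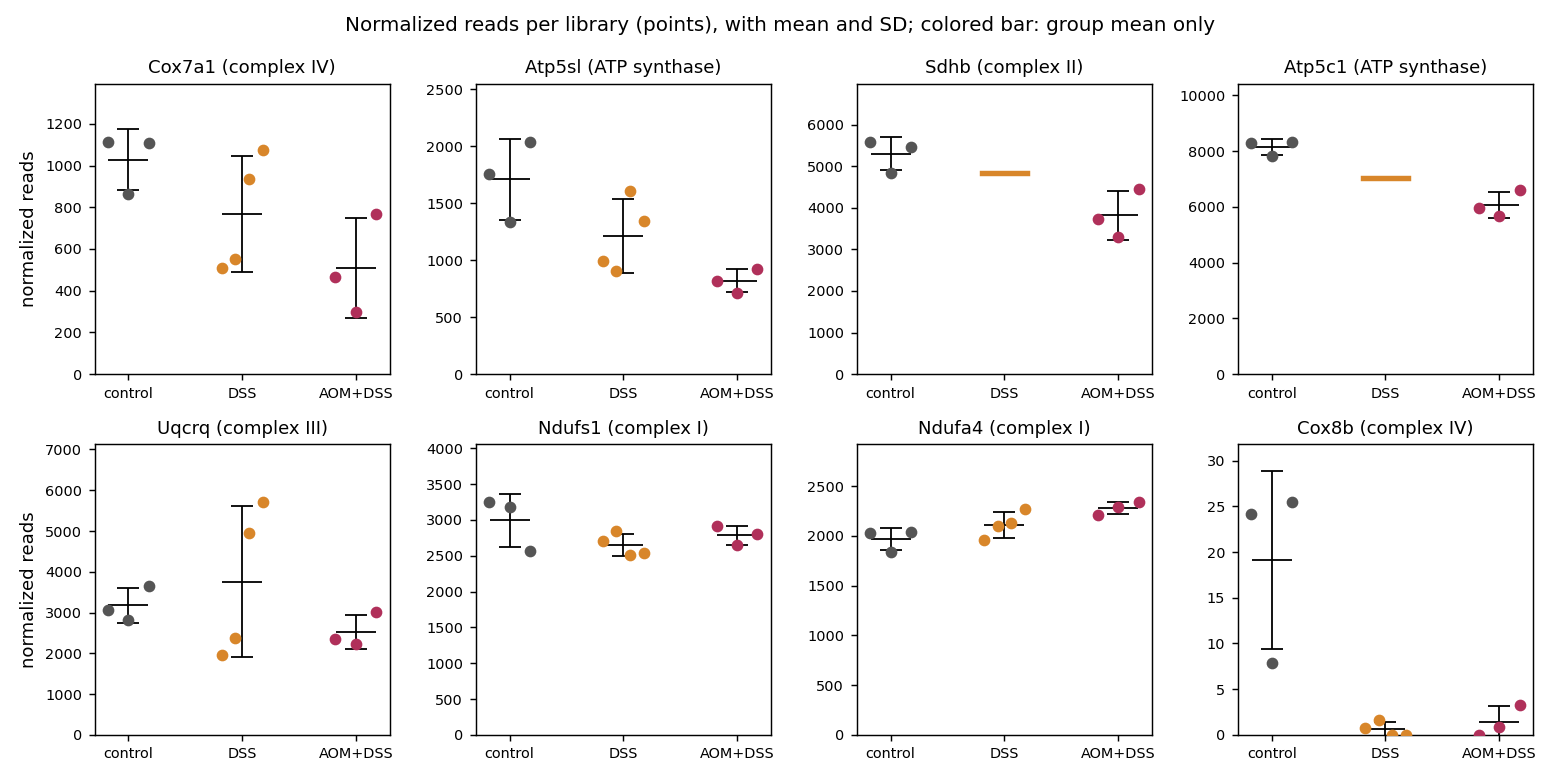
Normalized reads of 8 members in each library, by group, with mean and SD as black bars and with the group mean alone for DSS where library values were not recovered. Cox7a1 and Atp5sl show AOM+DSS libraries below all controls, Ndufa4 shows them above, and the 4 DSS points of Uqcrq fall into a low pair at 1964 and 2388 and a high pair at 4962 and 5700.

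Among the structural subunits of ATP synthase, fold changes in AOM+DSS ran from log2 -0.67 for Atp5e to -0.10 for Atp5f1. Atp5b and Atp5a1, the beta and alpha subunits and the members with the most reads, had 30495 ± 1292 and 27147 ± 1633 normalized reads in control and 26479 ± 1140 and 23712 ± 1286 in AOM+DSS (SD, n = 3 each). Their log2 fold changes were -0.20 and -0.20, and for both genes no AOM+DSS library reached the control range. The central stalk subunits lay lower, at log2 -0.42 for Atp5c1 (gamma), -0.59 for Atp5d (delta) and -0.67 for Atp5e (epsilon). In the peripheral stalk Atp5o had -0.60 and Atp5f1 -0.10, the value nearest 0 in the complex. The c-ring genes Atp5g1, Atp5g2 and Atp5g3, which encode the same mature protein, had -0.49, -0.49 and -0.25. Their DSS values were 0.05, -0.27 and -0.11, and none of the 3 passed in the authors' deposited table. Limma called Atp5g1 and Atp5g2 lower in AOM+DSS, with adjusted p of 0.0381 (range 0.0254 to 0.169 over its alternatives) and 0.0474 (range 0.0293 to 0.198).

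The 10 libraries did not follow their groups alone. Over the 61 members with a control mean of at least 50 normalized reads and reads in every library, the median log2 level relative to the control mean was 0.02, -0.13 and 0.10 in control libraries a to c. Among DSS libraries the value was -0.61 in a, -0.40 in b, 0.13 in c and 0.21 in d. For the AOM+DSS libraries it was -0.48, -0.67 and -0.15. DSS libraries a and b, the deeper pair, thus resembled AOM+DSS libraries a and b in level, while the shallower pair had medians above control. In DSS library a, 59 of the 61 members lay below the lowest control and in b 58, whereas in c 35 and in d 40 lay above the highest control. Of 10744 genes with a control mean of at least 50 and all libraries recovered, 39.99% and 36.6% lay below in a and b. In c and d, 32.5% and 36.0% lay above. In AOM+DSS the members below the lowest control numbered 59, 59 and 38, against 37.6%, 40.6% and 37.0% of all these genes.

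**Figure D3:**
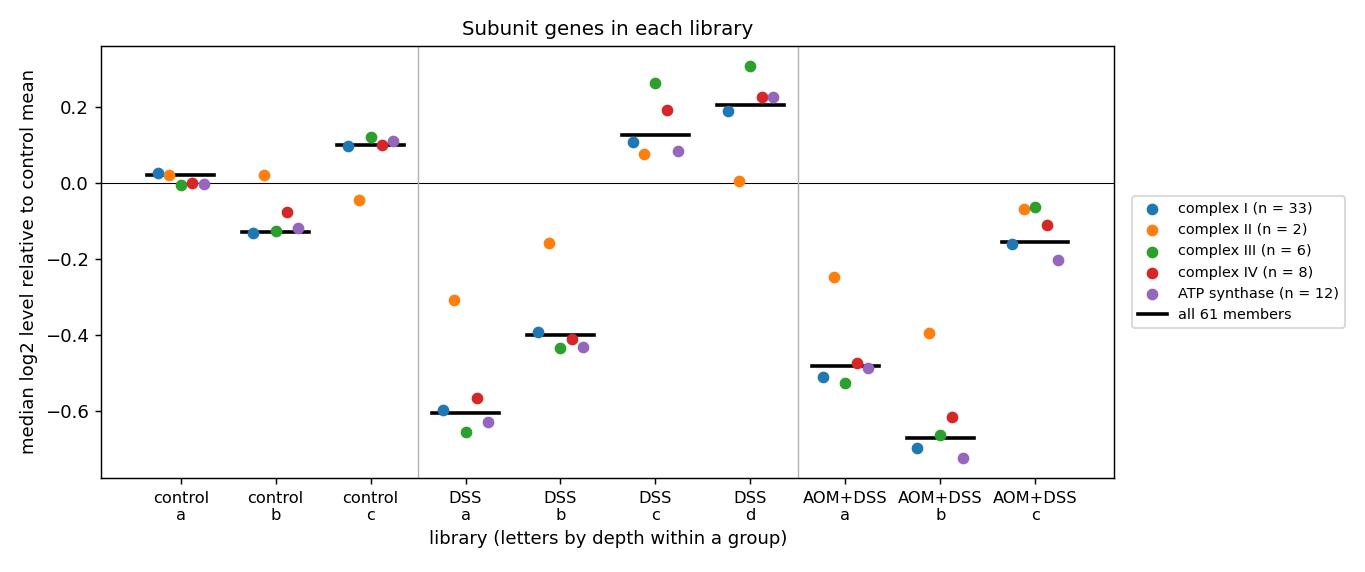
Median log2 level of the subunit genes of each complex in each library relative to the control mean, over 61 members recovered in all libraries; colored points are complexes and black bars all 61 members. DSS libraries a and b lie at -0.61 and -0.40 and libraries c and d at 0.13 and 0.21, and AOM+DSS library c lies nearest to control in its group.

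The split ran through nearly every member that could be assessed. Members not recovered in DSS, among them the abundant Atp5b, Atp5a1, Cox4i1 and Sdha, could not be. Both DSS libraries c and d exceeded both a and b in 58 of 61 members (95.1%), against 35.3% of genes with a control mean of at least 50 and 43.2% of those of at least 1000. The exception in the other direction was Ndufs1, with c and d below a and b. The median log2 ratio of c and d over a and b was 0.63 for members and -0.02 for genes with a control mean of at least 50. It was largest in complex III, at 0.89 over 6 members, and 0.27 over the 2 members of complex II. The highest values belonged to small subunits, 1.30 for Atp5e and 1.29 for Uqcrq. For members such as Atp5e, where several combinations fitted, recovery kept a highest library at most 3 times the lowest. That choice bounds their ratio. The comparison of DSS with control differed with the pair that was kept. These pairs were chosen after the data were seen. The counts above and the fits below thus describe the split and are no separate support for it. Without libraries c and d, limma called 8 members, all lower (Cox7a1, Ndufa6, Ndufb11, Ndufb8, Ndufs4, Ndufv3, Uqcr10 and Uqcrb). Of the 17354 genes in that fit, 2.52% were called lower. The medians of the complexes then lay between -0.54 and -0.23. Without libraries a and b limma called 1, Cox8b, which was lower (background 2.69%), and the medians lay between 0.04 and 0.29, above control. Both sets of medians cover only members recovered in DSS, such as 2 in complex II and 12 in ATP synthase. The medians from the group means cover 4 and 17 there, so the gene sets differ too.

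Transcript length and GC content moved with this split. Across 10424 genes, the ratio of c and d over a and b had a Spearman's rho of -0.49 with transcript length and 0.44 with GC content, genes not being independent replicates, and across the 61 members rho was -0.35 and 0.36. Members have short transcripts, with a median of 865 bases against 3165 for all genes in this comparison, taking the longest GENCODE transcript with the full coding sequence. Among genes of 371 to 1352 bases, the first of 10 bins by length, the median log2 ratio was 0.44, and the 46 members in it had 0.71. Within their own bin, 51 of 61 members lay above the median of all genes. The bins match length only in part, since the first bin has a median of 1052 bases and most members in it are shorter. After removal of a trend on length and GC content from each library, the median of the members was 0.31, and 0.66 when the shortest such transcript gave the length. The part of library preparation and of tissue state in the split was not tested, since the libraries carry no batch label.

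**Figure D4:**
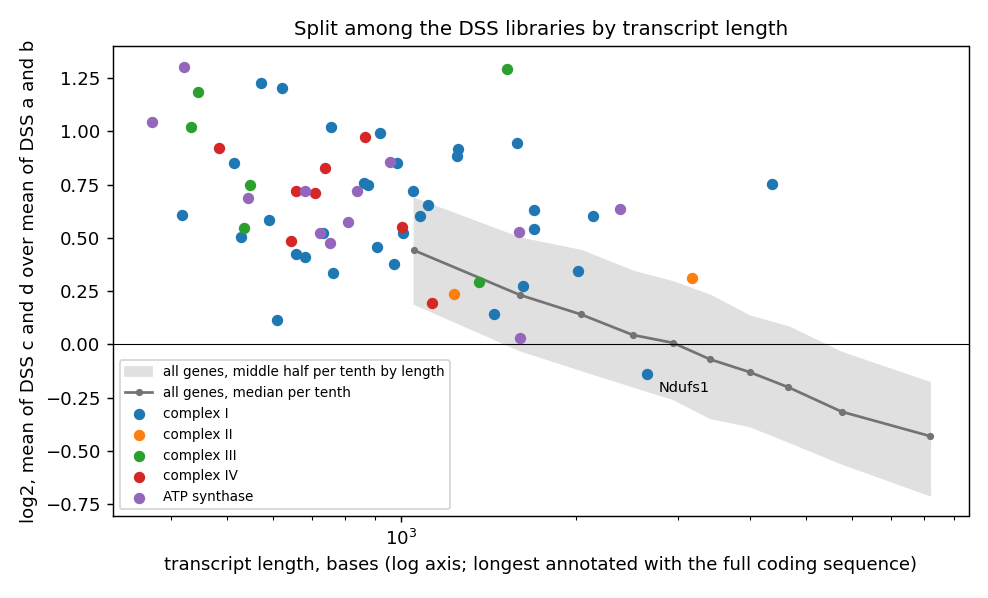
Log2 ratio of the mean of DSS libraries c and d over the mean of a and b for 61 members (points, colored by complex) against transcript length on a log axis; the grey line and band give the median and middle of all genes in each of 10 bins by length. Many members are shorter than the 1052 bases at which the line begins, most of the others lie above it, and Ndufs1 lies below 0.

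AOM+DSS libraries differed in the same coordinated way on a smaller scale. Library b was the lowest of its group in 73 of 76 members and library c the highest in 71. In control, library b was the lowest in 62 of 76 members and c the highest in 52. Summed over 76 members, AOM+DSS libraries a to c held 291830, 263844 and 345678 normalized reads, below the control libraries with 392711, 363039 and 397172. Library c is the one with 14917 normalized reads of smooth muscle markers. Of fibroblast and matrix markers it held 3288, against 1208 and 1215 in a and b. Control libraries a to c held 527, 1770 and 453 of these. Without AOM+DSS library c the complex medians were -0.60, -0.32, -0.54, -0.58 and -0.59 from complex I to ATP synthase, further below control than with it. Myeloid markers summed to 13396 in library b, 7366 in a and 5267 in c, against 1336 to 2479 in control, and their part in the members' levels was not tested. Across the 76 members the AOM+DSS over control ratio had a Spearman's rho of 0.13 with transcript length and -0.38 with GC content. Across 11128 genes with a control mean of at least 50, rho was 0.26 and -0.22.

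AOM+DSS was also compared with DSS directly. From the group means, 74 of 81 members were lower in AOM+DSS, with a median log2 of -0.28, against -0.01 for all genes and -0.07 for those with a control mean of at least 1000. Given the spread of the DSS libraries, no member passed: limma called 0 of 66 members (1 lower and 1 higher at an unadjusted p under 0.05), where 0.0567% of genes were called lower and 1.8% higher, and 3.29% were lower and 9.61% higher at the unadjusted threshold. No member had all AOM+DSS libraries below all DSS libraries (background 3.62%), and 1, Cox4i2, had them above (background 8.15%) at 6.63 normalized reads or less. The lowest ratio was that of Atp5e, at log2 -0.76, with 2618, 2294 and 3427 normalized reads in AOM+DSS against 2548, 2881, 6129 and 7240 in DSS. All 3 AOM+DSS values lay below the high DSS pair, and they overlap with the low pair.

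Genes that work with the complexes were read from lists of related pathways, made with earlier results of these data known. Of 38 tested assembly factors none passed in either comparison, with median log2 fold changes of -0.08 in DSS and -0.23 in AOM+DSS. Of 76 mitochondrial ribosomal proteins none passed, with medians of -0.09 and -0.27, and their summed level followed the same library order in DSS, at 56226, 65445, 82126 and 88408 normalized reads in libraries a to d. None of 24 import and chaperone genes passed, nor any of 10 genes of ADP-ATP exchange and ATP synthase accessories. For example, the heat shock protein Hspd1 had log2 0.07 and 0.12, and the ADP-ATP carrier Slc25a5 had -0.10 and -0.28, in DSS and AOM+DSS in the authors' deposited table.

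Single genes beside the chain did pass. Among 19 electron carriers and quinone genes none passed in DSS, while in AOM+DSS 2 fell and 1 rose. In the authors' deposited table the ubiquinone synthesis gene Coq9 fell by 0.78 (adjusted p = 0.00698), Coq10a, which handles ubiquinone, fell by 0.81 (adjusted p = 0.0279), and Gpd2, the glycerol phosphate dehydrogenase that feeds ubiquinone, rose by 0.62 (adjusted p = 0.0384) on the log2 scale. Among 18 genes of the citric acid cycle and pyruvate entry, Pcx, pyruvate carboxylase, was the one that passed. In the authors' deposited table it fell by 0.68 in DSS (adjusted p = 0.00681) and fell by 1.07 in AOM+DSS (adjusted p = 3.48e-05).

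Of 17 regulators of mitochondrial biogenesis, 2 fell in DSS and 3 in AOM+DSS, and none rose. By the authors' deposited table these were, in DSS, the coactivator Ppargc1a, which fell by 0.81 (adjusted p = 0.0197), and the mitochondrial transcription termination factor Mterfd2, which fell by 0.90 (adjusted p = 0.0469). In AOM+DSS the authors' deposited table had 3: Mterfd2 fell by 1.40 (adjusted p = 0.00176), the nuclear receptor Esrrg fell by 1.13 (adjusted p = 0.00787) and Polg2, a subunit of the mitochondrial DNA polymerase, fell by 1.00 (adjusted p = 0.0389). Limma did not call Mterfd2 in DSS (adjusted p = 0.0868) or Esrrg in AOM+DSS (adjusted p = 0.101). The authors' deposited table tested 18 genes of glycolysis and lactate, among which Hk2, a hexokinase, rose by 1.03 in DSS (adjusted p = 0.0124) and by 1.32 in AOM+DSS (adjusted p = 0.000104). In the same table of the authors, the lactate exporter Slc16a3 rose by 2.22 in AOM+DSS (adjusted p = 1.08e-05). The muscle phosphofructokinase Pfkm fell in both, by 1.04 and 0.88, and the monocarboxylate transporter Slc16a1 fell by 0.55 in AOM+DSS (adjusted p = 0.0455), a call that limma did not make (adjusted p = 0.103). The other genes of this list did not pass, and its medians were 0.02 and -0.05.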

How the data were processed

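Per the submitters' processing notes, reads were aligned with TopHat2 2.0 to mm9 and compared with DESeq. For the counter, the annotation and the strand setting, the sources used here give no name. The authors deposited, for DSS and for AOM+DSS against control, group means of normalized read counts (a signal, reads divided by size factors), the fold change (a ratio), its log2 and p-values, raw and adjusted. The header of the AOM+DSS table names 4 replicates where the labels give 3.

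From the deposited means, whole reads per library were recovered as the integer combinations that give the printed digits, for 99.9% of genes in control and AOM+DSS and 96.8% in DSS. Where several combinations fitted in DSS, the 1 whose highest library was at most 3 times its lowest was kept, as for 33 members. Recovery was tested on simulated data. The main test was the authors' adjusted p under 0.05, and AOM+DSS against DSS was tested with limma 3.58.1 (R 4.3.3) on log2(normalized reads + 1). Transcript lengths came from GENCODE M21. The gene family, pathway lists and roles were chosen with earlier results of these data known, while the rule that found the members used symbols only. Genes were named by a rule (members that passed, the 2 highest levels and the extreme fold changes of each complex, complex II and tissue forms), and Ndufs1, Ndufs4, Cox5b, Atp5o, Atp5d and promoter examples were added after their values were seen. 1 gene that this rule names is not reported here.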

Additional observations from a re-analysis of the deposited data

How the results depend on the processing

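No paired analysis was possible because recovered libraries cannot be tied to replicate numbers. The planned edgeR test was not run. For DSS against control, the count of members called, 0 in the authors' table, was 1 at an adjusted p under 0.1, 1 by limma, 2 with a pseudocount of 10, 1 after recentring, 3 and 1 after removing length and GC trends with longest and shortest transcripts, 0 to 1 with each library left out, 1 without libraries a and b and 8 without c and d. Without c and d the medians of complex IV and ATP synthase were -0.51 and -0.53, over 12 recovered members each. For AOM+DSS against control, the count of 2 was 6 at 0.1, 1 at 0.01, 24 by limma, 19 with a pseudocount of 10, 29 with a mean of at least 10, 20 after recentring, 51 and 34 after trend removal, and 0 to 57 with each library left out (12 without control library b). The share of all genes called lower was computed for limma (6.5%) and without AOM+DSS library c (8.62%) or control library b (6.38%). In DSS it was computed for limma and without either library pair. Counts under the other alternatives cannot be set against all genes, so a change in them may not be particular to the members. In AOM+DSS the median of every complex stayed below 0 under the alternatives run, from -0.60 to -0.15. For AOM+DSS against DSS the count was 0 under all 14 alternatives. Trend removal, the DSS library pairs, recentring for AOM+DSS against DSS, and limma's minimum mean of 10 for the comparisons with control were chosen after seeing the data. Low members such as Cox8b rest on few reads. Cox8b had at most 25.4 normalized reads in control and 1.65 in DSS, where the deeper libraries were low as well.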
